A study of Mus musculus with 16 samples.

Results

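The 10 genes described here encode chaperones of the endoplasmic reticulum (ER) and other genes switched on when unfolded protein builds up in that compartment. They were chosen by gene symbol as Hspa5, Hsp90b1, Calr, Canx, Xbp1, Herpud1, Dnajb9, Sdf2l1, Pdia4 and Creld2. All 10 were found among the 27179 genes of the count table, and all 10 were among the 14288 genes with enough counts to be tested. The study measured RNA of mouse embryonic stem (ES) cells in 16 libraries, with 2 libraries in each of 8 groups. The groups combine 2 maintenance media with 4 times of collection, 0, 12, 24 and 40 h into their exit from the naive state. The study's title concerns the ways in which pluripotent cells take in amino acids.

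Both media held leukaemia inhibitory factor (LIF) and 2i, which is 3 uM CHIR99021, an inhibitor of GSK3, and 1 uM PD0325901, an inhibitor of MEK. The 2i/LIF medium was free of serum, with a base of DMEM/F-12 and Neurobasal. The serum/LIF+2i medium had 10% fetal bovine serum in knockout DMEM. Glutamine is recorded at 2 mM for every group of both media. All cells had been kept in serum/LIF before they were adapted to one of these media. For exit, 2i and LIF were withdrawn. Cells from 2i/LIF then stayed in their own serum-free base medium. Cells from serum/LIF+2i lost their serum at the same moment and went into a mix of Neurobasal with glutamine-free DMEM to which 2 mM glutamine was added. After 0 h, the maintenance medium and the exit medium therefore cannot be told apart. No label says that the 2 libraries of a group came from separate cultures, so p-values measure the spread between these libraries, which may be technical. The cell line and its number of clones are not given in the sources used here.

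Proteins that enter the secretory pathway fold inside the ER, where HSPA5 (also called BiP) binds unfolded chains. When unfolded chains accumulate, the sensors ATF6, IRE1 (gene Ern1) and PERK (gene Eif2ak3) start the unfolded protein response, in which ATF6 and spliced XBP1 raise the genes of ER chaperones and of the degradation of misfolded ER proteins. PERK acts through the transcription factor ATF4, which is also made when amino acids run short, through the kinase GCN2. A rise of ATF4 target genes alone can therefore follow either kind of stress, whereas the ER chaperone genes are the usual readout of the ATF6 and XBP1 arms.

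Short promoter elements link these genes to that response, and they are shown here because they separate the 10 genes into those with and those without a perfect match. Promoters of 300 bases, from 250 before to 50 after each start site, were taken from RefSeq on build GRCm38.p6, and all 10 genes had one. The ER stress response element (ERSE) was searched on both strands as CCAAT, any 9 bases, then CCACG. The related ERSE-II was searched as ATTGG, any 1 base, then CCACG. ERSE was present in 5 of the 10 promoters, against 39 of all 32851 promoters (0.119%). ERSE-II was present in 1 of the 10, against 12 of all promoters (0.0365%). Both elements were searched because they are known from ER stress genes. These shares therefore describe the promoters and are no independent test of enrichment. Capitals mark the match, with 20 flanking bases on each side, 5′ to 3′ on the gene's own strand.
Hspa5: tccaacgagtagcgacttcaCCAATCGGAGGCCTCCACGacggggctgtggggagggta
Hsp90b1, distal match: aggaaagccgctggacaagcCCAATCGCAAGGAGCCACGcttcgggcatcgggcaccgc
Hsp90b1, proximal match: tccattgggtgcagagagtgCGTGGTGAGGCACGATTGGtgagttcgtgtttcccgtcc
Calr: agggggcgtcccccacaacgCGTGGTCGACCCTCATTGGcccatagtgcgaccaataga
Canx: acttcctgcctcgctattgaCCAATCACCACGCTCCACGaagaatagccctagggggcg
Creld2: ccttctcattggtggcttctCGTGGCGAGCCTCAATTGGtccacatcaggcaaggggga
Herpud1 (ERSE-II): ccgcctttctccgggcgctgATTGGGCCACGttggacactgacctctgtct

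The Hspa5 window lies at chr2:34772005-34772063 (plus strand), with the match 65 to 47 bases before the start site. Hsp90b1, on the minus strand, holds an ERSE at chr10:86705618-86705676 (212 to 194 bases before the start site) and another, read on the opposite strand, at chr10:86705513-86705571 (107 to 89 bases before it). The Calr window is at chr8:84847055-84847113 (minus strand, match 162 to 144 bases before the start, opposite strand). The Canx window is at chr11:50325780-50325838 (minus strand, 145 to 127 bases before the start). The Creld2 window is at chr15:88819500-88819558 (plus strand, 126 to 108 bases before the start, opposite strand). The ERSE-II of Herpud1 is at chr8:94386357-94386407 (plus strand, 52 to 42 bases before the start). Xbp1, Dnajb9, Sdf2l1 and Pdia4 had no match to either element in these 300 bases. The core of the element bound by spliced XBP1, TGACGTGG, was in 0 of the 10 promoters and in 222 of all promoters (0.676%). An amino acid response element of the kind bound by ATF4 with a partner, TGATGCAAT, was in 0 of the 10 and in 63 of all (0.192%). Only perfect matches were counted. The Herpud1 promoter holds gttgcatca, which read on the opposite strand departs from TGATGCAAT in its last base only. Near matches were not searched in the other promoters. ERSE and ERSE-II end in the same 5 bases, and TGACGTGG holds their complement, so these motifs can overlap. A match describes these letters and is not evidence of binding, and a missing match says nothing of the factor.

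Total counts ran from 5931381 to 11142744 per library, and the 4 serum/LIF+2i libraries of 24 and 40 h held more counts (9065257 to 11142744) than the 8 libraries of 2i/LIF (5931381 to 7858428). Any part of this depth difference in the results was not tested. Levels are given as CPM, counts scaled to a common library size. The least counted of the 10 genes was Dnajb9, with 88 to 241 counts per library. Markers of the labelled cells were present throughout: the summed level of 7 naive genes fell from 4683 to 4734 CPM to 139 to 139.7 CPM by 40 h in 2i/LIF and from 4999 to 5056 CPM to 110.4 to 110.5 CPM in serum/LIF+2i. The 5 formative genes reached 2499 to 2792 CPM and 1953 to 2063 CPM. The 4 genes shared by both states stayed between 1325 and 2301 CPM. Of other cell types, 9 markers of primitive and parietal endoderm, a secretory tissue, summed to 443 to 467 CPM at 0 h and 90.7 to 101.5 CPM at 40 h. At 24 h these endoderm markers summed to 164 to 178 CPM in serum/LIF+2i and 203 to 205 CPM in 2i/LIF. The 6 trophectoderm markers summed to 5.84 to 83.4 CPM and the 6 fibroblast markers to 1.78 to 10.5 CPM, with Postn at 0 in 8 of 8 groups. These are bulk samples, in which fewer cells of a type and less RNA per cell cannot be told apart.

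At 0 h the genes spanned a wide range of levels per length (RPKM, CPM divided by gene length in kilobases). In 2i/LIF, Hsp90b1 stood at 376 ± 8.10 RPKM (SD, n = 2), Calr at 279.5 ± 17.4, Hspa5 at 239 ± 9.05, Canx at 206 ± 1.19 and Pdia4 at 127 ± 3.11 RPKM. The other 5 were far lower per length, from Creld2 at 37.8 ± 0.186 RPKM through Xbp1 at 29.9 ± 0.00119, Sdf2l1 at 18.8 ± 0.0272 and Herpud1 at 10.7 ± 1.02 to Dnajb9 at 8.30 ± 1.60 RPKM. The order was the same in serum/LIF+2i at 0 h, and in both media the 2 libraries of each gene did not overlap with those of its neighbour in the order. At 24 h in serum/LIF+2i, Hspa5, at 458 ± 10.6 RPKM, had passed Hsp90b1, at 415 ± 11.4 RPKM. Xbp1 reached 94.6 ± 5.40 RPKM there and Herpud1 64.6 ± 0.789 RPKM, close to Creld2 at 65.6 ± 5.66 RPKM, whose libraries overlapped with those of Herpud1. Together the 10 genes took 0.339 to 0.352% of all counts in each of the 8 libraries of 2i/LIF. In serum/LIF+2i their share was 0.347 and 0.358% at 0 h, 0.286 and 0.287% at 12 h, 0.444 and 0.464% at 24 h and 0.379 and 0.386% at 40 h.

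**Figure D1:**
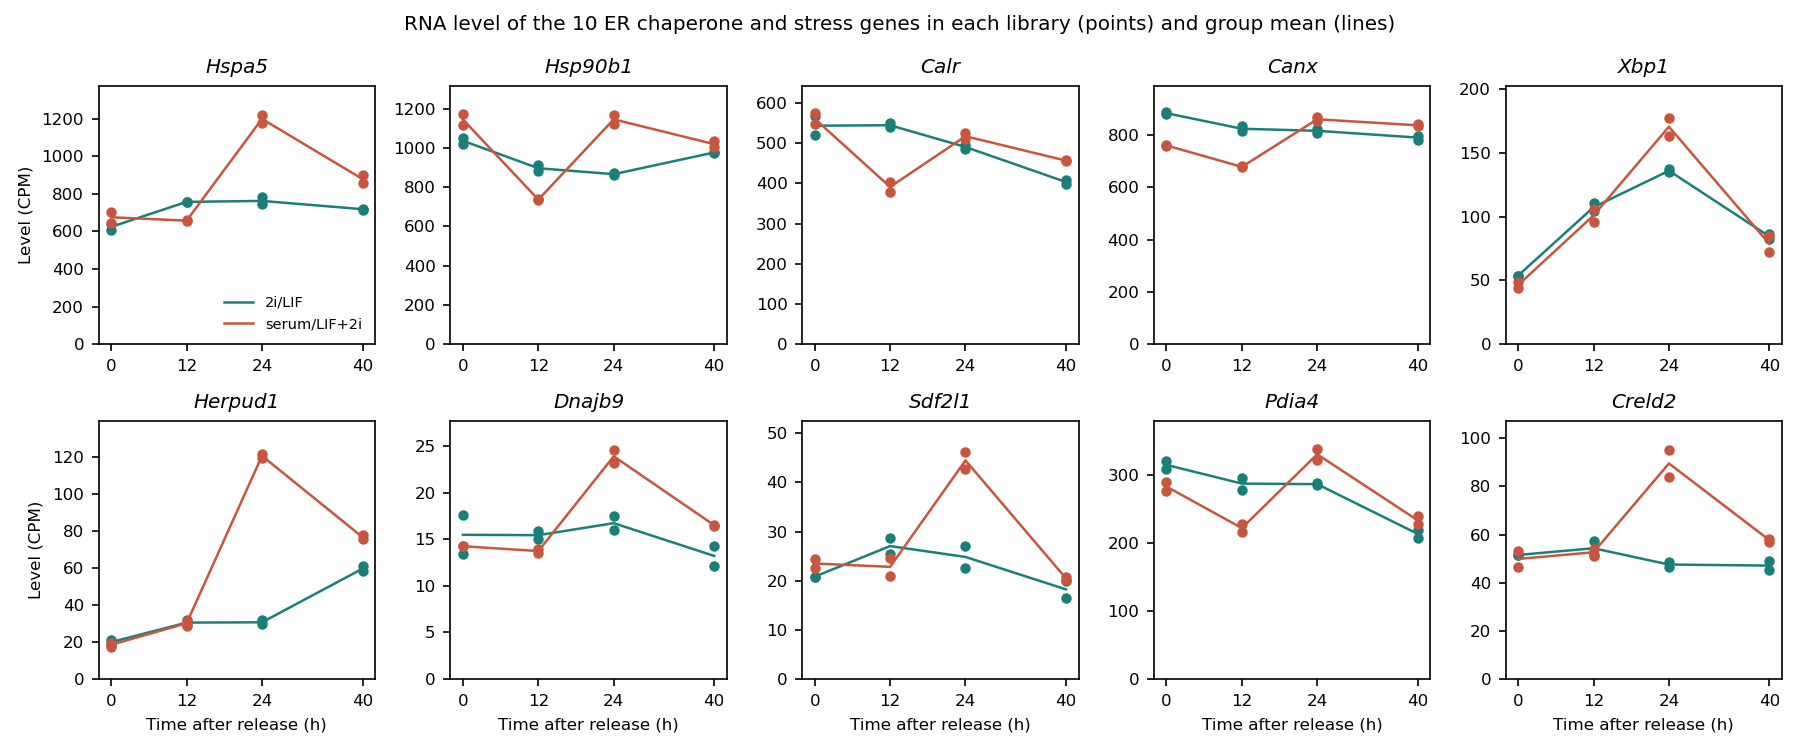
RNA level (CPM, y axis from 0) of each of the 10 genes against time after release (h), with a point per library and a line through the mean of the 2 libraries of each group, for 2i/LIF (green) and serum/LIF+2i (red). In 7 of the 10 panels both serum/LIF+2i libraries of 24 h lie above the other 14 libraries. The other 3 are Hsp90b1, Calr and Canx. How many of all genes have this pattern was not counted.

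Hspa5 is the main HSP70 chaperone of the ER and the gene most used to read the unfolded protein response (Entrez 14828, chr2:34771970-34777547, GRCm38). In 2i/LIF, Hspa5 stood at 608 and 641 CPM at 0 h, 759 and 756 CPM at 12 h, 744 and 781 CPM at 24 h and 722 and 715 CPM at 40 h. Hspa5 in serum/LIF+2i was at 704 and 647 CPM at 0 h, 661 and 655 CPM at 12 h, 1179 and 1218 CPM at 24 h and 859 and 899 CPM at 40 h. It left its 0 h range upward by 12 h in 2i/LIF and stayed above it, whereas in serum/LIF+2i it was flat to 12 h and then highest at 24 h. The log2 fold change against 0 h (the exit effect) in 2i/LIF was 0.28 ± 0.04 (adjusted p = 1.0e-10) at 12 h, 0.29 ± 0.04 (adjusted p = 1.9e-11) at 24 h and 0.20 ± 0.04 (adjusted p = 6.6e-07) at 40 h, by edgeR's quasi-likelihood test with Benjamini-Hochberg adjustment over all genes tested, as are the adjusted p-values of all comparisons. The value after ± is the SE of the log2 fold change. In serum/LIF+2i it was -0.04 ± 0.04 (adjusted p = 0.39) at 12 h, 0.83 ± 0.04 (adjusted p = 2.0e-43) at 24 h, a 1.77-fold rise, and 0.38 ± 0.04 (adjusted p = 6.9e-18) at 40 h. The ranges did not overlap with 0 h at 24 or 40 h in either medium.

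DNAJB9 and SDF2L1 work with HSPA5: the former is a J-domain protein of the ER that delivers clients and also represses the sensor IRE1, and the latter binds J-domain partners of the same chaperone. Dnajb9 (chr12:44205559-44210326) in 2i/LIF stood at 17.6 and 13.4 CPM at 0 h, 15.9 and 15 CPM at 12 h, 16 and 17.5 CPM at 24 h and 12.1 and 14.3 CPM at 40 h. Dnajb9 in serum/LIF+2i was at 14.3 and 14.2 CPM at 0 h, 13.5 and 13.9 CPM at 12 h, 23.2 and 24.6 CPM at 24 h and 16.5 and 16.5 CPM at 40 h. Only the 24 h libraries of serum/LIF+2i left the range of the other 14. Its exit effect there was 0.75 ± 0.13 (adjusted p = 2.9e-07), a 1.68-fold rise, and 0 of its other 5 exit effects were called (adjusted p from 0.16 to 0.98). Sdf2l1 (chr16:17130138-17132383) in 2i/LIF stood at 20.9 and 20.8 CPM at 0 h, 25.4 and 28.7 CPM at 12 h, 22.6 and 27 CPM at 24 h and 19.9 and 16.6 CPM at 40 h. Sdf2l1 in serum/LIF+2i was at 22.6 and 24.4 CPM at 0 h, 20.9 and 24.7 CPM at 12 h, 42.7 and 46.3 CPM at 24 h and 20.2 and 20.8 CPM at 40 h. It rose at 24 h in serum/LIF+2i by 0.92 ± 0.10 (adjusted p = 5.0e-14), 1.89-fold, and at 40 h its libraries lay below those of 0 h, with an exit effect that was not called (-0.20 ± 0.12, adjusted p = 0.12). In 2i/LIF its exit effect was 0.38 ± 0.12 (adjusted p = 0.0084) at 12 h, which was no longer called without replicate 2 of 12 h (0.28) or by DESeq2 (0.38), and 0.25 ± 0.13 (adjusted p = 0.087) at 24 h. Over all alternatives the 12 h value lay between 0.28 and 0.46.

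HSP90B1 (also called GRP94) is the HSP90 chaperone of the ER. Hsp90b1 (Entrez 22027, chr10:86690209-86705509) in 2i/LIF stood at 1021 and 1052 CPM at 0 h, 882 and 911 CPM at 12 h, 863 and 870.0 CPM at 24 h and 974 and 980.4 CPM at 40 h. Hsp90b1 in serum/LIF+2i was at 1174 and 1115 CPM at 0 h, 732 and 741 CPM at 12 h, 1124 and 1168 CPM at 24 h and 1005 and 1033 CPM at 40 h. The lowest libraries of the 16 were those of serum/LIF+2i at 12 h, and those of 24 h were back in the 0 h range of that medium. Its exit effect in serum/LIF+2i was -0.64 ± 0.03 (adjusted p = 1.5e-34) at 12 h, 0.00 ± 0.03 (adjusted p = 0.97) at 24 h and -0.17 ± 0.03 (adjusted p = 6.6e-06) at 40 h. In 2i/LIF it fell by a smaller amount at 12 h (-0.21 ± 0.03, adjusted p = 1.3e-07) and 24 h (-0.26 ± 0.03, adjusted p = 1.0e-10). The value at 40 h in 2i/LIF, -0.09 ± 0.03 (adjusted p = 0.023), lost its call without any 1 of the 4 libraries compared, with values from -0.08 to -0.04, and lay at -0.02 with library size alone. Hsp90b1 shares 632 exonic bases with other annotated genes, namely 1810014B01Rik, a pseudogene on the opposite strand, Gm15344 and Gm25745, and whether counting used strand is not given in the sources used here, so its counts may include reads of these.

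CALR (calreticulin) and CANX (calnexin) are the lectin chaperones that hold newly made glycoproteins, the former soluble and the latter in the membrane. Calr (chr8:84841850-84846934) in 2i/LIF stood at 519 and 567 CPM at 0 h, 540.0 and 549 CPM at 12 h, 496 and 485 CPM at 24 h and 408 and 399 CPM at 40 h. Calr in serum/LIF+2i was at 574 and 548 CPM at 0 h, 378 and 404 CPM at 12 h, 509 and 525 CPM at 24 h and 457 and 456 CPM at 40 h. Its exit effect was 0.00 ± 0.04 (adjusted p = 0.97) at 12 h and -0.43 ± 0.04 (adjusted p = 2.7e-19) at 40 h in 2i/LIF. The serum/LIF+2i values were -0.52 ± 0.04 (adjusted p = 2.1e-24) at 12 h and -0.30 ± 0.04 (adjusted p = 5.0e-12) at 40 h. Calr was thus lower at 40 h than at 0 h in both media, with no overlap between libraries. Its 24 h values were small: -0.15 ± 0.04 (adjusted p = 4.5e-04) in 2i/LIF, not called without replicate 2 of 0 h (-0.07), and -0.12 ± 0.04 (adjusted p = 0.0043) in serum/LIF+2i, not called without replicate 1 of 0 h (-0.07) or replicate 1 of 24 h (-0.07).

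Canx (chr11:50293961-50325673) in 2i/LIF stood at 880.3 and 888 CPM at 0 h, 834 and 815 CPM at 12 h, 809.8 and 823 CPM at 24 h and 799 and 783 CPM at 40 h. Canx in serum/LIF+2i was at 764 and 757 CPM at 0 h, 676 and 681 CPM at 12 h, 868 and 853 CPM at 24 h and 833 and 842 CPM at 40 h. Its highest library was nearer to its lowest, as a ratio, than in any other of the 10 genes, and at 24 and 40 h the 2 media had opposite signs. In 2i/LIF the exit effect was -0.16 ± 0.03 (adjusted p = 1.8e-05) at 40 h. The serum/LIF+2i values were -0.16 ± 0.03 (adjusted p = 2.3e-05) at 12 h, 0.18 ± 0.03 (adjusted p = 2.4e-06) at 24 h and 0.14 ± 0.03 (adjusted p = 1.6e-04) at 40 h. The earlier 2i/LIF values were -0.10 ± 0.03 (adjusted p = 0.011) at 12 h, not called without either replicate of 0 h or replicate 2 of 12 h (-0.08 each), and -0.11 ± 0.03 (adjusted p = 0.0027) at 24 h, not called without replicate 1 of 24 h (-0.10).

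PDIA4 is a protein disulfide isomerase, and CRELD2 is an ER protein induced by ER stress that has been linked to disulfide chemistry. Pdia4 (chr6:47796141-47813430) in 2i/LIF stood at 319.9 and 309 CPM at 0 h, 278 and 296 CPM at 12 h, 284 and 288 CPM at 24 h and 219 and 208 CPM at 40 h. Pdia4 in serum/LIF+2i was at 289 and 276 CPM at 0 h, 228 and 215 CPM at 12 h, 322 and 338 CPM at 24 h and 227 and 239 CPM at 40 h. It was lowest at 40 h in 2i/LIF (-0.56 ± 0.04, adjusted p = 4.0e-23). During exit from serum/LIF+2i its level went down at 12 h (-0.35 ± 0.04, adjusted p = 3.4e-12), was above 0 h at 24 h (0.22 ± 0.04, adjusted p = 9.3e-07) and below it at 40 h (-0.28 ± 0.04, adjusted p = 2.9e-09). The 2i/LIF values of 12 h, -0.13 ± 0.04 (adjusted p = 0.0073), and 24 h, -0.14 ± 0.04 (adjusted p = 0.0043), lost their calls without replicate 1 of 0 h (-0.08 and -0.10) and without replicate 1 of the later time (-0.09 and -0.12).

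Creld2 (chr15:88819646-88826683) in 2i/LIF stood at 51.7 and 51.3 CPM at 0 h, 57.1 and 51.5 CPM at 12 h, 48.6 and 46.5 CPM at 24 h and 49 and 45.2 CPM at 40 h. Creld2 in serum/LIF+2i was at 53.3 and 46.4 CPM at 0 h, 51.2 and 54.1 CPM at 12 h, 84.1 and 95 CPM at 24 h and 57.1 and 58.3 CPM at 40 h. Its 2i/LIF libraries ranged over less than 12 CPM, and 0 of its 3 exit effects there were called (adjusted p from 0.19 to 0.5). At 24 h in serum/LIF+2i it rose by 0.85 ± 0.07 (adjusted p = 5.6e-20), 1.80-fold. By 40 h in that medium the exit effect was 0.21 ± 0.08 (adjusted p = 0.013), not called without replicate 2 of 0 h (0.11) or replicate 2 of 40 h (0.19).

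XBP1 is the transcription factor whose mRNA is spliced by IRE1, and counts per gene cannot show that splicing. Xbp1 (Entrez 22433, chr11:5520659-5525893) in 2i/LIF stood at 53.8 and 53.8 CPM at 0 h, 104 and 110.3 CPM at 12 h, 135 and 137 CPM at 24 h and 82.3 and 86.4 CPM at 40 h. Xbp1 in serum/LIF+2i was at 44.4 and 48.5 CPM at 0 h, 96.1 and 106 CPM at 12 h, 177 and 163 CPM at 24 h and 84.8 and 72.3 CPM at 40 h. It rose and then came down in both media, and each later time lay wholly above 0 h. In 2i/LIF the exit effect was 1.00 ± 0.07 (adjusted p = 1.4e-23) at 12 h, 1.34 ± 0.07 (adjusted p = 5.9e-34) at 24 h and 0.65 ± 0.08 (adjusted p = 4.0e-13) at 40 h. The serum/LIF+2i values were 1.12 ± 0.07 (adjusted p = 3.1e-27) at 12 h, 1.87 ± 0.07 (adjusted p = 8.6e-49) at 24 h, 3.66-fold, and 0.76 ± 0.07 (adjusted p = 4.1e-17) at 40 h.

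HERPUD1 sits in the ER membrane and takes part in the degradation of misfolded ER proteins. Herpud1 (Entrez 64209, chr8:94386438-94395377) in 2i/LIF stood at 21.4 and 18.7 CPM at 0 h, 29.2 and 32 CPM at 12 h, 29.7 and 31.8 CPM at 24 h and 58.2 and 61.3 CPM at 40 h. Herpud1 in serum/LIF+2i was at 19.5 and 17.6 CPM at 0 h, 31.6 and 28.8 CPM at 12 h, 119.8 and 122 CPM at 24 h and 77.8 and 75.9 CPM at 40 h. It had the largest exit effects of the 10 genes at 24 h in serum/LIF+2i and at 40 h in both media. In serum/LIF+2i it rose by 0.70 ± 0.11 (adjusted p = 5.9e-08) at 12 h, 2.70 ± 0.09 (adjusted p = 4.7e-57) at 24 h, 6.50-fold, and 2.05 ± 0.09 (adjusted p = 5.3e-43) at 40 h. In 2i/LIF it rose by 0.62 ± 0.12 (adjusted p = 2.9e-06) at 12 h, 0.62 ± 0.12 (adjusted p = 2.1e-06) at 24 h and 1.58 ± 0.10 (adjusted p = 1.6e-29) at 40 h, 2.99-fold. Herpud1 was the only 1 of the 10 that was highest at 40 h in 2i/LIF, where Hspa5, Xbp1, Sdf2l1 and Dnajb9 had lower means than at 24 h.

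**Figure D2:**
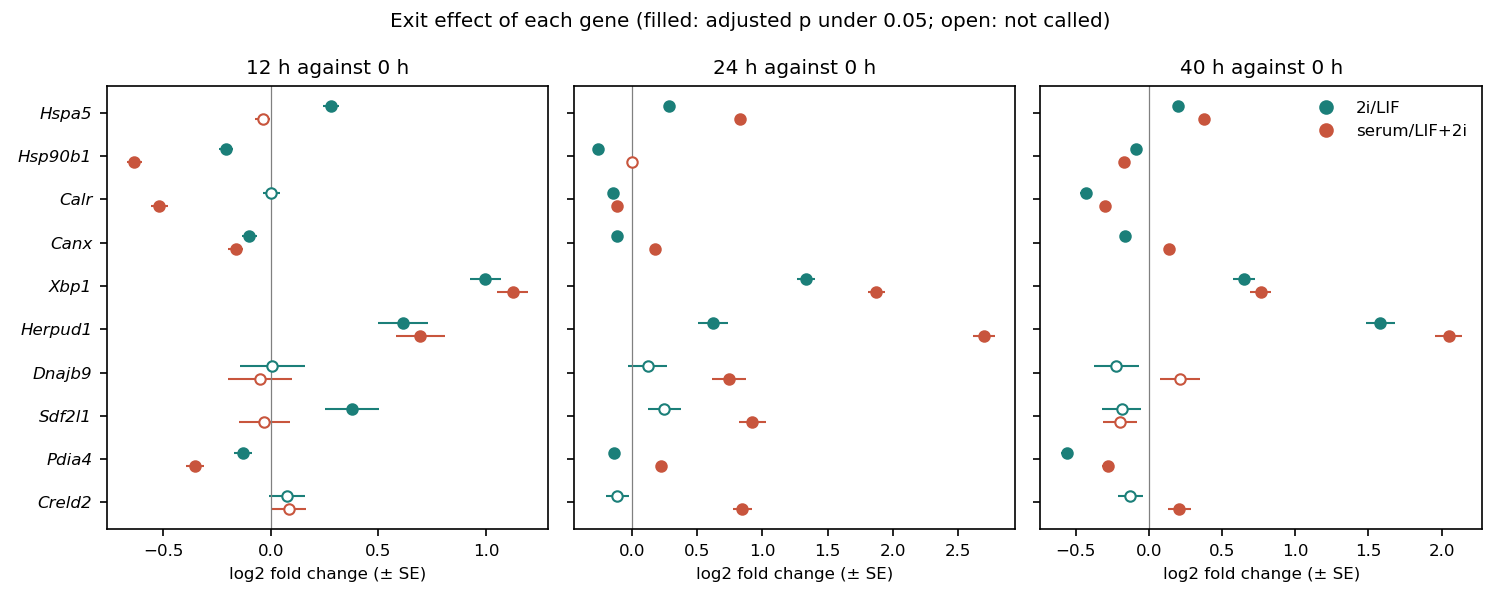
Log2 fold change against 0 h (x axis, bars are 1 SE) of each of the 10 genes at 12, 24 and 40 h in 2i/LIF (green) and serum/LIF+2i (red); filled points had an adjusted p under 0.05 and open points did not. At 24 h the serum/LIF+2i points of Hspa5, Xbp1, Herpud1, Dnajb9, Sdf2l1 and Creld2 lie between 0.75 and 2.70, and in 2i/LIF the largest are Xbp1 at 1.34 and Herpud1 at 0.62.

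Counted over the 10 genes, exit in 2i/LIF moved them in both directions at every time. At 12 h, 4 were called higher (Hspa5, Xbp1, Herpud1, Sdf2l1) and 3 lower (Hsp90b1, Canx, Pdia4), beside 21.0% and 23.7% of all genes tested. At 24 h, 3 were higher and 4 lower, beside 29.2% and 29.6% of all genes. At 40 h, again 3 were higher (Hspa5, Xbp1, Herpud1) and 4 lower (Calr, Canx, Hsp90b1, Pdia4), beside 34.1% and 34.7%. At 24 and 40 h these shares are near those of the whole table. The median log2 fold change of the 10 genes was 0.04, 0.00 and -0.14 at the 3 times, against 0.00, 0.01 and 0.01 over all genes.

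In serum/LIF+2i the balance of the 10 genes turned between 12 and 24 h. At 12 h, 2 genes were called higher (Xbp1, Herpud1) and 4 lower (Hsp90b1, Calr, Canx, Pdia4), beside 25.3% and 25.9% of all genes. At 24 h, 8 were higher and 1 (Calr) lower, with Hsp90b1 not called, beside 32.4% and 32.0% of all genes. At 40 h, 5 were higher (Hspa5, Canx, Xbp1, Herpud1, Creld2) and 3 lower (Hsp90b1, Calr, Pdia4), beside 35.3% and 35.3%. The median of the 10 genes was -0.04, 0.79 and 0.17 in turn, against 0.00, 0.01 and 0.00 over all genes.

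Tests of the successive steps showed a rise in serum/LIF+2i between 12 and 24 h. Xbp1 and Herpud1 had already been called higher at 12 h (1.12 and 0.70), and the 12 h rise of Xbp1 exceeded its 12 to 24 h rise. All 10 genes were called higher over that step, beside 24.2% of all genes, with a median of 0.76. Herpud1 rose by 2.01 ± 0.07 (adjusted p = 3.4e-50), Sdf2l1 by 0.95 ± 0.10 (adjusted p = 2.6e-15), Hspa5 by 0.87 ± 0.04 (adjusted p = 7.9e-45) and Dnajb9 by 0.80 ± 0.12 (adjusted p = 2.7e-08). Creld2 rose by 0.76, Xbp1 by 0.75, Hsp90b1 by 0.64, Pdia4 by 0.58, Calr by 0.40 and Canx by 0.34. The abundant chaperones Hsp90b1, Calr, Canx and Pdia4 had all been called lower from 0 to 12 h, so their rise over this step started from below the 0 h level.

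Over the same step in 2i/LIF, 1 gene was called higher (Xbp1, 0.34 ± 0.06, adjusted p = 1.2e-06) and 1 lower (Calr, -0.15 ± 0.04, adjusted p = 6.8e-04), beside 17.4% and 17.7% of all genes. Hspa5 differed by 0.01 ± 0.04 (adjusted p = 0.87) and Herpud1 by 0.01 ± 0.10 (adjusted p = 0.98). The difference of the 12 to 24 h step between media was called for all 10 genes, each larger in serum/LIF+2i, beside 7.21% of all genes called larger and 9.87% called smaller. This comparison was added after the values had been seen. It was 2.00 ± 0.13 (adjusted p = 6.1e-27) for Herpud1, 1.08 ± 0.15 (adjusted p = 1.1e-08) for Sdf2l1, 0.95 ± 0.11 (adjusted p = 3.5e-12) for Creld2 and 0.86 ± 0.05 (adjusted p = 2.9e-29) for Hspa5. The smallest was that of Canx, 0.36 ± 0.05 (adjusted p = 2.4e-09). For Dnajb9 it was 0.68 ± 0.19 (adjusted p = 0.0057), not called by DESeq2 (0.69), and over all alternatives between 0.63 and 0.76.

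From 24 to 40 h the genes came down in serum/LIF+2i, where 9 genes were called lower and 0 higher, beside 24.6% and 25.9% of all genes, and Canx differed by -0.04 ± 0.03 (adjusted p = 0.34). The falls were largest for Sdf2l1, -1.12 ± 0.10 (adjusted p = 3.9e-20), and Xbp1, -1.11 ± 0.05 (adjusted p = 2.9e-36), while Hspa5 changed by -0.45 ± 0.04 (adjusted p = 2.4e-22) and Herpud1 by -0.65 ± 0.06 (adjusted p = 8.0e-19). In 2i/LIF, 2 genes were higher (Herpud1, 0.96 ± 0.09, adjusted p = 6.0e-18, and Hsp90b1, 0.17 ± 0.03, adjusted p = 1.1e-05) and 6 lower, beside 22.2% and 24.5%. The 6 were Xbp1 (-0.69), Pdia4 (-0.42), Calr (-0.28), Sdf2l1 (-0.44), Dnajb9 (-0.34) and Hspa5 (-0.09). Of these, Sdf2l1 lost its call without replicate 2 of 24 h or of 40 h (-0.29 and -0.30), Dnajb9 without either replicate of 24 h or replicate 1 of 40 h (-0.40 to -0.21), and Hspa5 without replicate 2 of 24 h or either replicate of 40 h (-0.08 to -0.04). Herpud1 thus went up in 2i/LIF while it came down in serum/LIF+2i, and the difference of this step between media, also added after the values were seen, was -1.61 ± 0.11 (adjusted p = 5.9e-26) for it. In all, 6 genes were called with a more negative step in serum/LIF+2i (Hspa5, Hsp90b1, Xbp1, Herpud1, Sdf2l1, Creld2), and 0 with a more positive one, beside 5.63% and 6.57% of all genes.

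The exit effects themselves were compared between media as an interaction, the exit effect in serum/LIF+2i minus that in 2i/LIF. At 24 h it was called for 9 of the 10 genes, all larger in serum/LIF+2i, beside 9.77% of all genes. Herpud1 had 2.08 ± 0.16 (adjusted p = 2.9e-22), Creld2 0.96 ± 0.12 (adjusted p = 1.7e-11), Sdf2l1 0.67 ± 0.17 (adjusted p = 0.0011), Hspa5 0.54 ± 0.05 (adjusted p = 2.7e-16) and Xbp1 0.54 ± 0.10 (adjusted p = 1.5e-05). The abundant chaperones had smaller values, with Pdia4 at 0.36 ± 0.06 (adjusted p = 5.4e-07), Canx at 0.29 ± 0.05 (adjusted p = 5.9e-07) and Hsp90b1 at 0.26 ± 0.05 (adjusted p = 9.7e-06). Calr had 0.03 ± 0.05 (adjusted p = 0.74). For Dnajb9 it was 0.63 ± 0.20 (adjusted p = 0.015), and this call was lost without replicate 1 of 2i/LIF at 0 h (0.41) or at 24 h (0.57) and by DESeq2 (0.64).

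At 12 h the sign was the opposite: 4 genes had a lower exit effect in serum/LIF+2i and 0 a higher one, beside 4.40% and 4.80% of all genes. They were Calr (-0.52 ± 0.05, adjusted p = 7.3e-14), Hsp90b1 (-0.43 ± 0.05, adjusted p = 8.4e-12), Hspa5 (-0.32 ± 0.05, adjusted p = 1.3e-06) and Pdia4 (-0.22 ± 0.06, adjusted p = 0.0078). The call of Pdia4 was lost without replicate 2 of 2i/LIF at 0 or 12 h, replicate 1 of serum/LIF+2i at 0 h or replicate 2 at 12 h, with values from -0.20 to -0.18. With ribosomal RNA genes left out of the library sizes, the share of higher among all genes called in this comparison went from 52.2 to 41.4%.

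At 40 h, 5 genes had a larger exit effect in serum/LIF+2i, beside 14.8% of all genes. They were Canx (0.30 ± 0.05, adjusted p = 2.3e-07), Pdia4 (0.28 ± 0.06, adjusted p = 1.1e-04), Herpud1 (0.47 ± 0.15, adjusted p = 0.011), Creld2 (0.34 ± 0.12, adjusted p = 0.021) and Hspa5 (0.18 ± 0.05, adjusted p = 0.0047). Without replicate 1 of 2i/LIF at 0 h, Herpud1 (0.36) and Creld2 (0.31) were not called. With replicate 2 of serum/LIF+2i at 0 h left out, Herpud1 (0.39), Hspa5 (0.12) and Creld2 (0.24) were not called. Hspa5 also lost the call without replicate 2 of 2i/LIF at 0 h (0.13) or of serum/LIF+2i at 40 h (0.14), and Creld2 without replicate 2 of 2i/LIF at 0 h (0.33) or 40 h (0.27) or of serum/LIF+2i at 40 h (0.32). The calls of Canx and Pdia4 at 40 h were not lost in any alternative.

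Direct comparison of the media at each time (serum/LIF+2i minus 2i/LIF) was made next. At 0 h the chaperone genes were near each other in the 2 media: 2 were called higher in serum/LIF+2i (Hsp90b1, 0.14 ± 0.03, adjusted p = 4.3e-04, and Hspa5, 0.11 ± 0.04, adjusted p = 0.012) and 3 lower (Canx, -0.22 ± 0.03, adjusted p = 1.0e-07, Pdia4, -0.15 ± 0.04, adjusted p = 0.0027, and Xbp1, -0.21 ± 0.09, adjusted p = 0.049), beside 14.6% and 18.4% of all genes. The calls of Hspa5, Pdia4 and Xbp1 rested on single libraries. Hspa5 lost it without replicate 1 of 2i/LIF (0.09) or of serum/LIF+2i (0.05), Pdia4 without replicate 1 of 2i/LIF (-0.11) or replicate 2 of serum/LIF+2i (-0.12), and Xbp1 without either replicate of 2i/LIF (-0.20 and -0.21) or replicate 1 of serum/LIF+2i (-0.15). At 12 h, 5 were lower in serum/LIF+2i and 0 higher, beside 15.5% and 14.8%: Calr (-0.48 ± 0.04), Pdia4 (-0.37 ± 0.04), Hsp90b1 (-0.28 ± 0.03), Canx (-0.28 ± 0.03) and Hspa5 (-0.20 ± 0.04). At 24 h, 8 were higher and 0 lower, beside 14.1% and 17.0%. Herpud1 was 3.94-fold higher (1.98 ± 0.08, adjusted p = 1.3e-46), Creld2 1.88-fold, Sdf2l1 1.80-fold and Hspa5 1.57-fold. Calr (0.08 ± 0.04, adjusted p = 0.11) and Canx (0.08 ± 0.03, adjusted p = 0.079) were not called. At 40 h, 5 were higher and 0 lower, beside 13.9% and 13.4%: Herpud1 (0.36 ± 0.07, adjusted p = 8.1e-06), Hspa5 (0.29 ± 0.04, adjusted p = 2.7e-11), Creld2 (0.29 ± 0.08, adjusted p = 0.0019), Calr (0.18 ± 0.04, adjusted p = 8.0e-05) and Pdia4 (0.13 ± 0.04, adjusted p = 0.017). Pdia4 and Creld2 were not called without replicate 2 of 2i/LIF at 40 h (0.08 and 0.23), nor was Pdia4 with serum/LIF+2i replicate 2 of 40 h left out (0.09).

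Other genes of the response were read from lists on the roles they play. Their counts at 24 h stand beside 32.4% of all genes called higher and 32.0% lower in serum/LIF+2i, and 29.2% and 29.6% in 2i/LIF. Of 18 other ER folding genes, all tested, 10 were called higher and 6 lower at 24 h in serum/LIF+2i, with a median of 0.19, and 5 higher and 8 lower in 2i/LIF, with a median of -0.11. The 6 lower genes are near the share of the whole table. Manf, a secreted protein that binds HSPA5 in the ER, stood at 93.2 and 80.8 CPM at 0 h and 181 and 196 CPM at 24 h in serum/LIF+2i (1.11 ± 0.06, adjusted p = 5.9e-38), and at 88.1 and 92 and 111 and 119 CPM in 2i/LIF (0.35 ± 0.06, adjusted p = 7.4e-07). Uggt1, the folding sensor that returns glycoproteins to calreticulin and calnexin, fell in both media, with exit effects of -0.66 ± 0.04 (adjusted p = 1.5e-27) in serum/LIF+2i and -0.50 ± 0.05 (adjusted p = 1.6e-17) in 2i/LIF. Erp44, a thiol protein that retains clients, fell too, with -0.43 ± 0.08 (adjusted p = 6.6e-07) and -0.89 ± 0.08 (adjusted p = 4.7e-18) in the same order. Txndc5, a disulfide isomerase, rose by 0.45 ± 0.05 (adjusted p = 9.1e-14) and 0.46 ± 0.05 (adjusted p = 4.9e-13). The list therefore did not move in 1 direction in either medium. Over the 12 to 24 h step in serum/LIF+2i, however, 13 of the 18 were called higher and 0 lower, with a median of 0.45, beside 24.2% and 24.2% of all genes.

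Of 15 genes of ER-associated degradation, 10 were called higher and 2 lower at 24 h in serum/LIF+2i (median 0.49), against 4 and 3 in 2i/LIF (median -0.02), beside 32.4% and 32.0% of all genes in serum/LIF+2i and 29.2% and 29.6% in 2i/LIF. The 2i/LIF counts are near those shares. Edem1, which feeds misfolded glycoproteins to degradation, had exit effects of 0.57 ± 0.07 (adjusted p = 3.3e-11) in serum/LIF+2i and 0.05 ± 0.08 (adjusted p = 0.64) in 2i/LIF, with an interaction of 0.52 ± 0.11 (adjusted p = 1.5e-04). Derl3, a derlin of this pathway, stood at 0.441 and 1.32 CPM at 0 h, close to the limit of detection, 16.5 and 17.9 CPM at 24 h and 5.86 and 7.74 CPM at 40 h in serum/LIF+2i, and at 2.78 and 3.95 CPM at 24 h in 2i/LIF. Of 11 genes for the sensors and their processing, 5 were higher and 3 lower at 24 h in serum/LIF+2i (median 0.04), against 3 and 4 in 2i/LIF (median -0.17), which are near the same shares. Atf6, whose protein is the sensor cut to release a transcription factor, went from 57.7 and 53.8 CPM to 111 and 118 CPM in serum/LIF+2i (1.04 ± 0.07, adjusted p = 6.1e-24). It also rose in 2i/LIF, by 0.26 ± 0.09 (adjusted p = 0.0067), with an interaction of 0.78 ± 0.11 (adjusted p = 3.4e-08). Eif2ak3 rose by 0.59 ± 0.10 (adjusted p = 2.5e-07) in serum/LIF+2i and differed by 0.15 ± 0.11 (adjusted p = 0.22) in 2i/LIF, with an interaction of 0.44 ± 0.15 (adjusted p = 0.026). Ern1 differed by 0.04 ± 0.16 (adjusted p = 0.82) in serum/LIF+2i and by -0.21 ± 0.19 (adjusted p = 0.34) in 2i/LIF, and its interaction was 0.25 ± 0.24 (adjusted p = 0.52).

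ATF4 and its amino acid response were followed with a list of 25 genes, all tested. At 24 h in serum/LIF+2i, 24 of the 25 were called higher and 1 lower, with a median of 1.46, beside 32.4% and 32.0% of all genes. In 2i/LIF at that time, 15 were higher and 2 lower (median 0.34), beside 29.2% and 29.6%. Between 24 and 40 h in 2i/LIF, 21 of the 25 rose and 2 fell (median 0.84), beside 22.2% and 24.5% of all genes. Over that step 6 of the 10 ER genes were called lower and 2 higher. Of the 6, Sdf2l1, Dnajb9 and Hspa5 lost their calls in some alternatives. Between 24 and 40 h in serum/LIF+2i, 15 of the 25 rose and 1 fell (median 0.28), beside 25.9% and 24.6% of all genes, while 9 of the 10 ER genes fell. The list and the ER genes were not tested against each other. Atf4 itself stood at 249 and 254, 479.8 and 488 and 524 and 516 CPM at 0, 24 and 40 h in serum/LIF+2i, and at 292 and 283, 343 and 357 and 512 and 518 CPM in 2i/LIF. In both media its 40 h libraries were higher than those of 24 h.

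Ddit3, which encodes CHOP, a target of ATF4 that is raised by ER stress and by amino acid shortage, stood at 13.3 and 14.9 CPM at 0 h, 7.36 and 11.5 CPM at 24 h and 17.4 and 27.4 CPM at 40 h in 2i/LIF. Its serum/LIF+2i level went from 10.4 and 10.7 CPM to 58.1 and 58.2 CPM at 24 h and 55.2 and 56 CPM at 40 h, and its interaction was 3.05 ± 0.24 (adjusted p = 3.1e-17) at 24 h and 1.74 ± 0.22 (adjusted p = 1.0e-09) at 40 h. Chac1, a glutathione-degrading enzyme and ATF4 target, rose by 3.49 ± 0.11 (adjusted p = 6.2e-59) at 40 h in 2i/LIF and by 4.03 ± 0.10 (adjusted p = 1.4e-66) in serum/LIF+2i. Asns, asparagine synthetase and the textbook ATF4 target of amino acid shortage, fell in both media, with 24 h exit effects of -1.43 ± 0.04 (adjusted p = 9.6e-61) in 2i/LIF and -1.51 ± 0.04 (adjusted p = 4.3e-64) in serum/LIF+2i. Asns was the 1 gene of the list called lower at 24 h in serum/LIF+2i.

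Chaperones of other compartments were read beside those of the ER. Of 15 cytosolic chaperones, 6 were called higher and 4 lower at 24 h in serum/LIF+2i (median 0.00), and 7 higher and 1 lower in 2i/LIF (median 0.26), beside 32.4% and 32.0% of all genes in the former and 29.2% and 29.6% in the latter. The serum/LIF+2i counts are near those of the whole table. Their interaction at 24 h was called lower for 8 and higher for 0 of the 15, beside 11.0% of all genes lower, where 9 of the 10 ER genes were higher. Hsp90aa1, the cytosolic counterpart of Hsp90b1, had an interaction of -0.16 ± 0.05 (adjusted p = 0.0075), and the small heat shock gene Hspb1 -0.44 ± 0.07 (adjusted p = 9.0e-07). Of 9 mitochondrial chaperones and proteases, 4 were higher and 1 lower at 24 h in serum/LIF+2i (median 0.04), and 4 higher and 0 lower in 2i/LIF (median 0.10), to be read beside the same shares of all genes. Hspa9, the mitochondrial HSP70, rose by 0.64 ± 0.03 (adjusted p = 3.1e-36) and 0.29 ± 0.03 (adjusted p = 2.5e-13), in the order serum/LIF+2i and 2i/LIF.

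**Figure D3:**
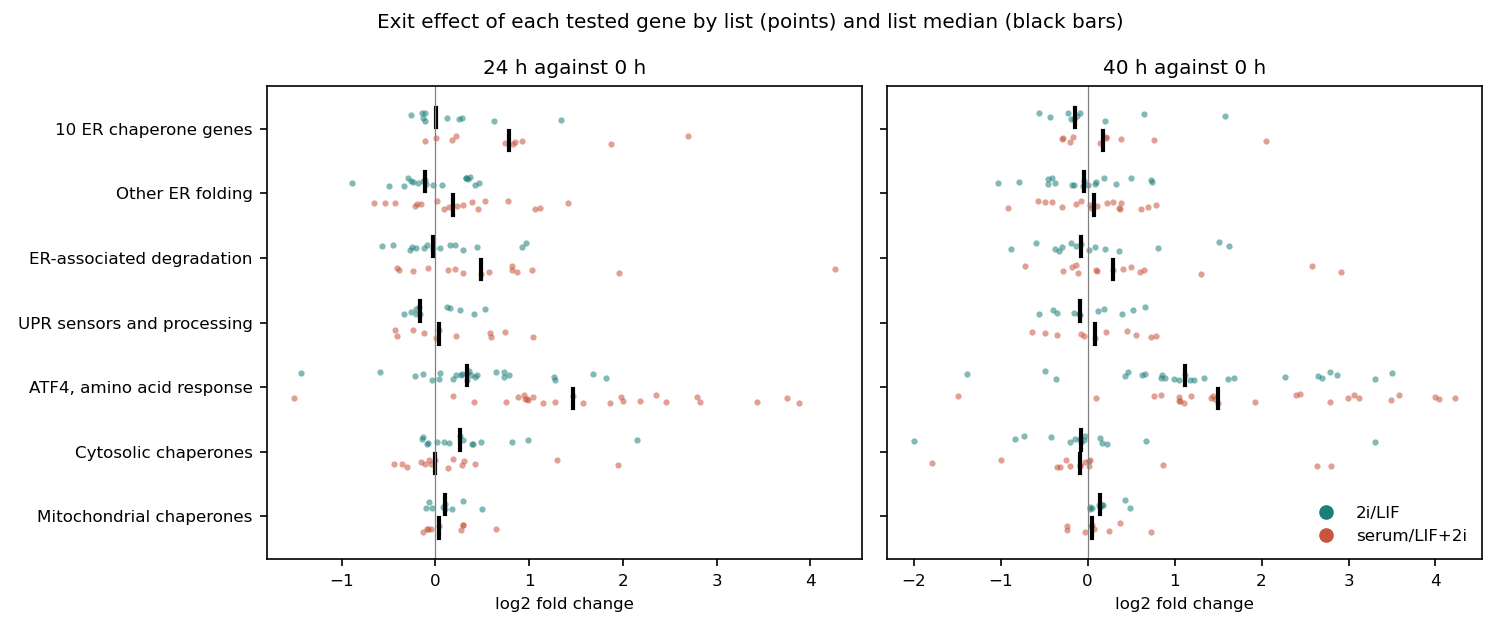
Log2 fold change against 0 h (x axis) of each tested gene, grouped by list (rows), at 24 h (left) and 40 h (right) in 2i/LIF (green) and serum/LIF+2i (red), with a black bar at each list's median. For the 10 ER chaperone genes the serum/LIF+2i median is 0.79 at 24 h and 0.17 at 40 h, whereas that of the ATF4 list is 1.46 at 24 h.

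Across the 8 group means (log2 CPM), the 10 genes did not follow 1 common course. As descriptions over 8 groups, each of which shares its medium or its time with others, Hspa5 had a Pearson correlation of 0.898 with Dnajb9, 0.885 with Creld2, 0.871 with Herpud1 and 0.780 with Sdf2l1. It was 0.685 with Xbp1, 0.415 with Canx, 0.411 with Hsp90b1, 0.321 with Pdia4 and 0.110 with Calr. Calr was most like Pdia4 (0.871), and its correlation with Herpud1 was -0.316. Dnajb9 and Creld2 reached 0.900. The 5 genes with lower levels per length thus had higher correlations with Hspa5 (0.685 to 0.898) than the 4 other abundant ones (0.110 to 0.415).

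Among 10685 other genes averaging 5 CPM or more, the one whose group means were most like those of Hspa5 was Dnajc3, a J-domain partner of HSPA5, with a correlation of 0.991 over 8 groups. Golga3 (0.981) came next, and Selenos (0.947) and Btbd10 (0.945) were also among the 5 most similar. Golga3 encodes a golgin of the Golgi apparatus and Selenos a membrane selenoprotein of ER-associated degradation. Dnajc3 stood at 48.1 and 46.3 CPM at 0 h, 63 and 60.4 CPM at 12 h, 57.1 and 60.9 CPM at 24 h and 59.9 and 58.2 CPM at 40 h in 2i/LIF. Dnajc3 in serum/LIF+2i was at 51.1 and 54.8 CPM at 0 h, 54.9 and 48.8 CPM at 12 h, 109 and 113 CPM at 24 h and 80.7 and 81.5 CPM at 40 h. Its exit effect at 24 h in serum/LIF+2i was 1.06 ± 0.07 (adjusted p = 2.1e-29), and its interaction at 24 h was 0.74 ± 0.11 (adjusted p = 1.9e-08). For the mean course of the 10 genes, the most similar were Slc35b1 (0.977), a nucleotide transporter of the ER membrane, Golga3 (0.961), Btbd10 (0.952), Dnajc3 (0.944) and Tex14 (0.933). Slc35b1 went from 54.4 and 47 CPM at 0 h to 85.8 and 83.8 CPM at 24 h in serum/LIF+2i, with an interaction of 0.60 ± 0.11 (adjusted p = 7.4e-06). These genes were chosen for their likeness, so their tests describe them and support nothing.

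**Figure D4:**
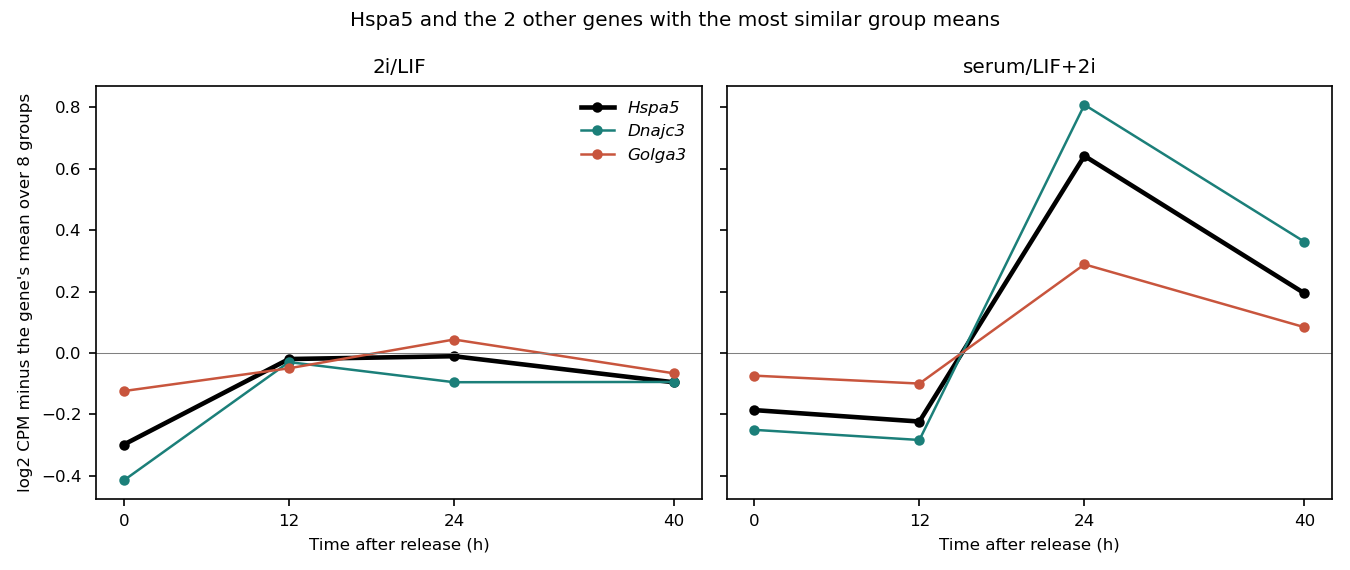
Mean log2 CPM of each group minus the gene's own mean over the 8 groups (y axis) against time after release (h) for Hspa5 (black) and the 2 other genes with the highest correlation of group means, Dnajc3 and Golga3, in 2i/LIF (left) and serum/LIF+2i (right). Every line has its highest point at 24 h in serum/LIF+2i.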

How the data were processed

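The authors deposited 1 table of whole-number counts per gene for the 16 libraries, with Entrez identifier, symbol and gene length per the file headers. Per the submitters' processing notes, fastp, STAR, featureCounts and build mm10 were used, and whether counting used strand is not given in the sources used here. Libraries came from a stranded poly(A) kit, per the labels' protocols. Groups and replicate numbers were read from the sample titles. The protocol names 24 or 40 h for exit from serum/LIF+2i, and the titles, which also give 12 h, were followed. Of 27179 genes, 1049 had no symbol, and 0 columns of values were set aside.

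Genes were kept with edgeR 4.0.16 filterByExpr (minimum count 10, minimum total 15) and library sizes scaled by TMM. All 16 libraries were fitted in 1 model with a term per group (8 residual degrees of freedom, common biological coefficient of variation 3.19%). The test was the two-sided robust quasi-likelihood F test with Benjamini-Hochberg adjustment over 14288 genes, called under 0.05. SEs were derived from the F statistic. There were 17 comparisons, and 2 differences of steps between media were added after values were seen. CPM use the scaled totals, RPKM divide them by the deposited gene length, and group means of log2 CPM used a prior count of 2. Counts of reads carry no molecular identifiers, so precision at these depths covers counting error and the spread of libraries only. The procedure was tested on simulated data.

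The 10 genes and all lists were chosen with earlier results of these data known. All 10 are named in each comparison. From each other list, the 4 genes with the smallest adjusted p at 40 h could be named, and the sensors Ern1, Atf6 and Eif2ak3 with Atf4, Ddit3, Chac1 and Asns always. Likeness took the 5 genes with the highest Pearson correlation, of which 1 is not reported here. Gene positions are from GENCODE vM21 and promoters from RefSeq, both on GRCm38. Alternatives were DESeq2 1.42.0, its size factors in edgeR, library size only, other filters on low counts, ribosomal RNA genes left out, a replicate block, only the libraries compared, and each library left out in turn.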

Additional observations from a re-analysis of the deposited data

Results flagged for a closer look

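These log2 differences between the media passed the test of the difference itself (edgeR's quasi-likelihood test with Benjamini-Hochberg adjustment), each as serum/LIF+2i minus 2i/LIF. For the exit effect at 12 h they were -0.52 for Calr, -0.43 for Hsp90b1, -0.32 for Hspa5 and -0.22 for Pdia4. For the exit effect at 24 h they were 2.08 for Herpud1, 0.96 for Creld2, 0.67 for Sdf2l1, 0.63 for Dnajb9, 0.54 for Hspa5, 0.54 for Xbp1, 0.36 for Pdia4, 0.29 for Canx and 0.26 for Hsp90b1. For the exit effect at 40 h they were 0.47 for Herpud1, 0.34 for Creld2, 0.30 for Canx, 0.28 for Pdia4 and 0.18 for Hspa5. Some of these calls were lost in alternatives. They were those of Pdia4 at 12 h, Dnajb9 at 24 h, and Herpud1, Creld2 and Hspa5 at 40 h.

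For the step from 12 to 24 h the differences were 2.00 for Herpud1, 1.08 for Sdf2l1, 0.95 for Creld2, 0.86 for Hspa5, 0.69 for Hsp90b1, 0.68 for Dnajb9, 0.58 for Pdia4, 0.55 for Calr, 0.41 for Xbp1 and 0.36 for Canx. For the step from 24 to 40 h they were -1.61 for Herpud1, -0.69 for Sdf2l1, -0.62 for Creld2, -0.42 for Xbp1, -0.36 for Hspa5 and -0.34 for Hsp90b1. These step differences share libraries with the exit effects and were added after values were seen. Among them, the 12 to 24 h call of Dnajb9 was lost under DESeq2. Total counts were higher in the serum/LIF+2i libraries of 24 and 40 h (9065257 to 11142744) than in 2i/LIF, and the part of depth in these values was not tested.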

How the results depend on the processing

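Over 19 comparisons, 130 values of the 10 genes were called and 60 were not. Among 1696 alternative values of the called ones, 0 changed sign and 87 were no longer called, spread over 23 of the 130. Among 784 alternative values of the uncalled ones, 22 became called, and 61 near 0 changed sign and were called in neither fit. The cause was not tested for any of them. The number of genes called moved by more than 1.5 times in these cases. DESeq2 called 3 in place of 5 for the medium difference at 0 h and 3 in place of 5 for the interaction at 40 h. DESeq2 also called fewer of all genes. For the first it called 3097, against 2085 higher and 2625 lower in the main fit. For the second it called 2377, against 2109 higher and 1831 lower. With library size only, 8 of the 10 genes in place of 5 were called for the medium difference at 40 h. The share of higher among all genes called there went from 50.8 to 60.1%. With each library left out in turn, the counts were 5 to 6 (exit, 2i/LIF, 12 h), 6 to 7 (24 h) and 6 in each fit (40 h), and 6 to 7, 8 to 9 and 7 to 8 for exit in serum/LIF+2i. They were 2 to 3 and 5 to 7 for the steps of 2i/LIF, and 10 and 9 in each fit for those of serum/LIF+2i. Medium differences had 2 to 4 at 0 h, 5 at 12 h, 8 at 24 h and 3 to 6 at 40 h, and interactions 3 to 4, 8 to 9 and 2 to 6 in turn. The differences of steps had 10 and 6 in each fit. The lowest counts came without replicate 1 of 2i/LIF at 0 h (2, medium difference at 0 h), replicate 2 of serum/LIF+2i at 0 h (2, interaction at 40 h), replicate 2 of 2i/LIF at 40 h (3, medium difference at 40 h) and replicate 2 of 2i/LIF at 24 h (5, step from 24 to 40 h). Also moved were the medium difference at 0 h without serum/LIF+2i replicate 1 of 0 h (3) and the interaction at 40 h without serum/LIF+2i replicate 2 of 40 h (3). Where 1 library was left in a group, it was assumed to vary like the others.

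No pairing by shared replicate number was seen. The correlation of deviations between same-numbered libraries lay between -0.023 and 0.033 over 28 pairs of groups, with 0 over 0.1. It took all genes tested with equal weight, so counting error of low genes could mask a weak pairing. With the number as a replicate block, the interaction at 40 h had 6 genes called in place of 5 (Calr was added, 0.13), and the other counts did not change. No alternative scaling moved the median of all genes by more than 0.1.

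Calls were lost most often for Pdia4 and Hspa5 (15 times each) and Dnajb9 (14 times), the last with 88 to 241 counts per library, and least often for Calr and Herpud1 (3 times each). The 23 values that lost a call at least once had sizes of 0.09 to 0.68 on the log2 scale, with a median of 0.18. The falls of Hspa5 and Dnajb9 from 24 to 40 h in 2i/LIF, of Hsp90b1 at 40 h in 2i/LIF and the difference of Xbp1 between media at 0 h also lost their calls under DESeq2, with library size only, with a minimum mean of 5 CPM and with ribosomal RNA genes left out, and that of Canx at 12 h in 2i/LIF with the last (-0.07). DESeq2 also did not call Pdia4 at 12 h in 2i/LIF, at 40 h between media and in the 12 h interaction, Hspa5 between media at 0 h, or Herpud1 and Creld2 in the 40 h interaction. With library size only, the 40 h exit effect of Canx was -0.09 for 2i/LIF against 0.22 for serum/LIF+2i, and Hsp90b1 had -0.09 for serum/LIF+2i. Without serum/LIF+2i replicate 1 of 0 h, the 40 h exit effect of Creld2 was 0.32, and without replicate 2 the 0 h medium difference of Hspa5 was 0.17. The 12 to 24 h rise in serum/LIF+2i was called for all 10 genes in each alternative run.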

Other observations

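Beyond the 10 genes, 43 others had a perfect ERSE or ERSE-II in their 300-base RefSeq promoter, of which 35 were in the count table and 24 were tested. Some of these, such as Dnajc3 and Derl3, are also on the lists of ER folding and degradation genes above, so these sets overlap. How many of the genes called below are shared with those lists was not counted. Against 0 h, 11 of the 24 had risen and 8 had fallen at 24 h in serum/LIF+2i, with a median log2 fold change of 0.17, beside 32.4% and 32.0% of all genes tested. In 2i/LIF at 24 h the numbers were 6 higher and 7 lower, with a median of 0.04, beside 29.2% and 29.6%. Over the 12 to 24 h step in serum/LIF+2i, 14 rose and 3 fell (median 0.43), beside 24.2% of all genes in each direction. In 2i/LIF, 5 were higher and 5 lower over this step (median -0.06), beside 17.4% and 17.7% of all genes. The difference of this step between media was called higher for 10 of the 24 and lower for 0 (median 0.24), beside 7.21% and 9.87% of all genes. At 40 h in serum/LIF+2i, 10 were higher and 10 lower (median -0.01), beside 35.3% and 35.3% of all genes. These promoters were found by sequence only, and a match does not show that a factor binds there.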
